A study of Arabidopsis thaliana with 12 samples.

Results

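DNA recovered with the Arabidopsis thaliana protein FL3 in blue light was sought by ChIP-seq, the sequencing of immunoprecipitated chromatin, and the data here are the merged peaks whose counts were higher in every library of the tagged line than in every library of the untagged control. There were 230 such peaks among 2436 in all. Each library's counts were divided by the median count of that library over all 2436 peaks, so that a value of 1 is the library's median peak. The 10% of peaks with the highest mean in the untagged libraries were set aside first. Of the 2192 peaks left, those were kept whose lowest FL3-Flag value exceeded the highest WT value and whose ratio of FL3-Flag mean to WT mean was 1.4 or more. The same counts that chose these peaks give their size, so their levels and ratios below are a description and carry no test.

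The WT group was Col-0, the wild-type accession, which carries no tagged protein. The FL3-Flag group was a line with the FL3-Flag genotype. Both were seedlings grown for 10 days on 1/2 MS medium, under continuous blue light of 30 µmol per m2 and second according to the series' design text. In both groups 1 g of material was cross-linked for 30 minutes with EGS at 1.5 mM, and anti-Flag affinity beads were used for the pull-down. Each group had 3 immunoprecipitation (IP) libraries, and the 6 input libraries were not analysed here. The promoter that drives the tagged gene, the number of independent lines and the state of the native FL3 gene are not stated. The title of the series names FL1, while its design text and its tagged samples name FL3. Total counts over the peaks ran from 7874284 to 9155289 in the WT libraries and from 5300645 to 6237558 in the FL3-Flag libraries, without overlap. Nothing in the labels says whether replicates came from separate plant cultures.

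Flag is a short peptide tag that is fused to a protein so that 1 antibody can pull down any tagged protein. EGS joins proteins to proteins, which can help to hold a protein to a partner that binds DNA. In such an assay an untagged line measures what the beads pull down by themselves, and DNA bound through the tagged protein is sought among regions with more reads in the tagged line. In plants, blue light is perceived by cryptochromes, which act largely in the nucleus on gene expression, and by phototropins. The peaks carry running IDs without coordinates, sequences or neighbouring genes, so no gene, promoter or motif is named.

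Most of the consistently higher peaks were weak peaks with modest ratios. Their WT mean had a median of 0.482 of the median peak, with quartiles of 0.394 and 0.621, and their FL3-Flag mean had a median of 0.742, with quartiles of 0.641 and 0.976. The WT mean lay below the median peak in 208 of the 230, and the FL3-Flag mean was still below it in 174. The other 34 of the 208 lay below the median peak in WT and above it in FL3-Flag. Whole seedlings were used, so stronger recovery in every cell and recovery in some cells only cannot be told apart. The ratio of means had a median of 1.56 over the 230 peaks, against 0.984 over the 2192 peaks left.

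The ratios were concentrated near the threshold. They lay between 1.4 and 1.5 in 77 peaks, between 1.5 and 2 in 145, and between 2 and 3 in 5. Only 3 of the 230 were above 3. The margin between the genotypes was narrow as well, since the lowest FL3-Flag value was less than 1.2 times the highest WT value in 94 peaks and less than 1.1 times in 30. In 14 peaks it was 1.5 times or more.

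**Figure D1:**
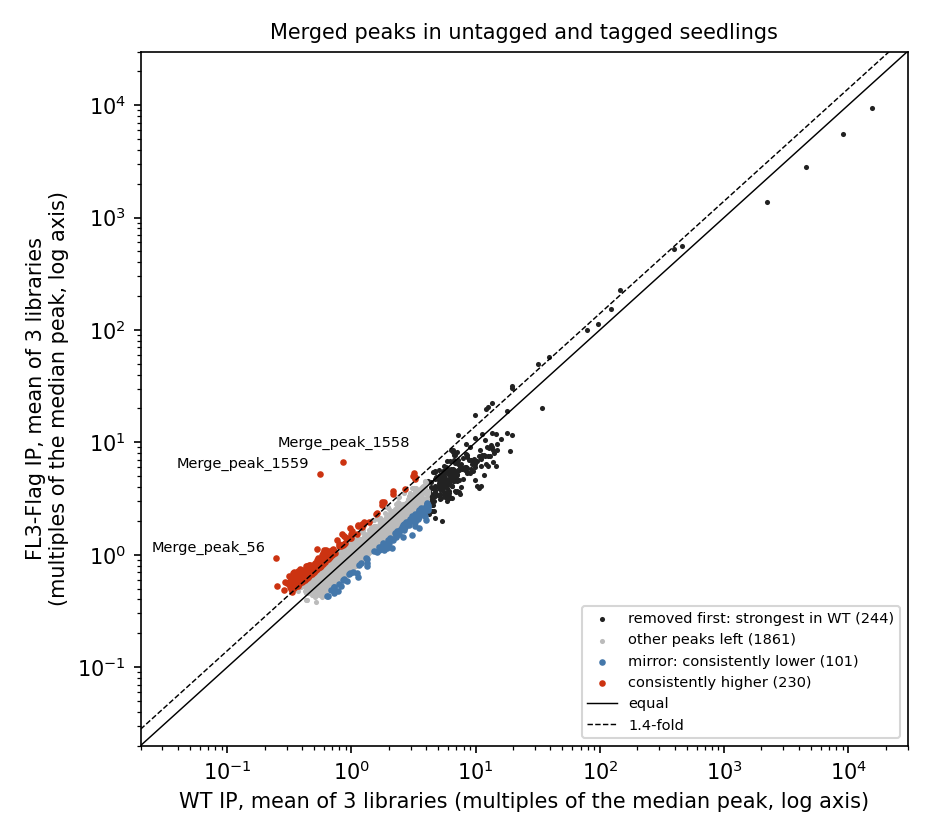
Mean WT IP against mean FL3-Flag IP for the 2436 merged peaks, each the mean of 3 libraries in multiples of the library's median peak, on log axes with lines of equality and of a 1.4-fold ratio. The 230 consistently higher peaks lie mostly at the weak end, with Merge_peak_1559, Merge_peak_1558 and Merge_peak_56 standing away from the rest, while most of the peaks removed for their WT level lie under the line of equality.

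Reads in the 230 peaks made up a larger part of the tagged libraries. They held 5.15%, 5.54% and 5.26% of the reads outside the removed peaks in WT replicates 1, 2 and 3, and 9.10%, 9.14% and 8.73% in FL3-Flag replicates 1, 2 and 3. The 3 FL3-Flag shares lay close together and the genotypes did not overlap, as the choice of peaks makes almost certain. The 3 peaks with the largest ratios supplied little of this, since without them the shares were 5.25% ± 0.198 in WT and 8.50% ± 0.260 in FL3-Flag (SD, n = 3 each). Of all reads over the peaks, the 230 held at most 0.437% in a WT library and at most 0.999% in an FL3-Flag library, because the removed peaks held between 89.1% and 93.4%.

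Across all 2436 peaks, 17.7% were called higher in the FL3-Flag IP (edgeR quasi-likelihood test, adjusted p below 0.05). Of the 230 peaks, 229 were called higher, which follows from the choice and is not read as a result. The exception, Merge_peak_2222, held 75, 82 and 70 reads in the WT libraries and 91, 148 and 91 in the FL3-Flag libraries. It is named because it was the exception, after its values were seen. Among the 2192 peaks left after the strongest were removed, all FL3-Flag values exceeded all WT values in 18.5% and lay under all WT values in 20.3%.

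A pair of peaks with neighbouring IDs had by far the highest ratios. Merge_peak_1559 held 102, 144 and 133 reads in the WT libraries, in the order of the replicates, and 1180, 1279 and 1139 in the FL3-Flag libraries. In multiples of the median peak this was 0.557 ± 0.0927 in WT and 5.20 ± 0.379 in FL3-Flag (SD, n = 3 each), a ratio of 9.34. The 9 ratios of 1 FL3-Flag library to 1 WT library ran from 7.92 to 12.5, so every library of the tagged line stood far above every untagged one.

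Merge_peak_1558 held 185, 187 and 214 reads in the WT libraries and 1433, 1800 and 1442 in the FL3-Flag libraries. Its mean went from 0.862 ± 0.0754 in WT to 6.73 ± 0.599 in FL3-Flag (SD, n = 3 each), a ratio of 7.81. Both peaks were below the median peak without the tag and among the 6 highest FL3-Flag means of the 230 with it. Together they held 0.986% ± 0.0829 of the reads of the 230 peaks in WT and 5.07% ± 0.496 in FL3-Flag (SD, n = 3 each).

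The high ratios stopped at the edges of this pair. Merge_peak_1557 had a ratio of 0.986 and Merge_peak_1560 one of 1.27, and from Merge_peak_1561 to Merge_peak_1564 the ratios ran from 0.925 to 1.06. Merge_peak_1556 also belonged to the 230, at a ratio of 1.51. Whether neighbouring IDs are neighbours in the genome is not stated in the sources used here.

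Merge_peak_56 had the third highest ratio and was the weakest of the 230 in WT. It held 56, 70 and 43 reads in the WT libraries and 235, 223 and 185 in the FL3-Flag libraries. Its mean went from 0.248 ± 0.0575 to 0.926 ± 0.0617 (SD, n = 3 each), a ratio of 3.73, and the 9 ratios between single libraries ran from 2.84 to 5.20. The FL3-Flag libraries agreed closely with each other, but even there the peak stayed just below the median peak. Merge_peak_55 and Merge_peak_53 also belonged to the 230, at ratios of 1.57 and 1.69, while Merge_peak_54 and Merge_peak_57 lay at 1.22 and 0.878.

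After these 3 peaks the ratios dropped to about 2-fold. Merge_peak_1501 held 97, 163 and 97 reads in WT and 298, 271 and 215 in FL3-Flag, a ratio of 2.15. WT replicate 2 lay well above the other two WT libraries at this peak, and the lowest FL3-Flag value was 1.48 times the value of that library. Merge_peak_343 held 74, 87 and 72 reads in WT and 179, 167 and 145 in FL3-Flag, a ratio of 2.07 with small spread in both genotypes.

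Merge_peak_771, Merge_peak_706 and Merge_peak_1419 had ratios of 2.11, 2.05 and 2.04. At Merge_peak_771 the FL3-Flag counts of 154, 128 and 88 were spread widely, whereas at Merge_peak_706 the WT counts of 75, 76 and 63 and the FL3-Flag counts of 142, 190 and 120 were well apart. Merge_peak_2066, Merge_peak_713, Merge_peak_2223 and Merge_peak_1586 completed the 12 highest ratios, at 1.96, 1.94, 1.91 and 1.88. All 9 of these peaks were weak in WT, at 0.250 to 0.524 of the median peak, and Merge_peak_1501 alone exceeded the median peak in FL3-Flag, at 1.13.

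**Figure D2:**
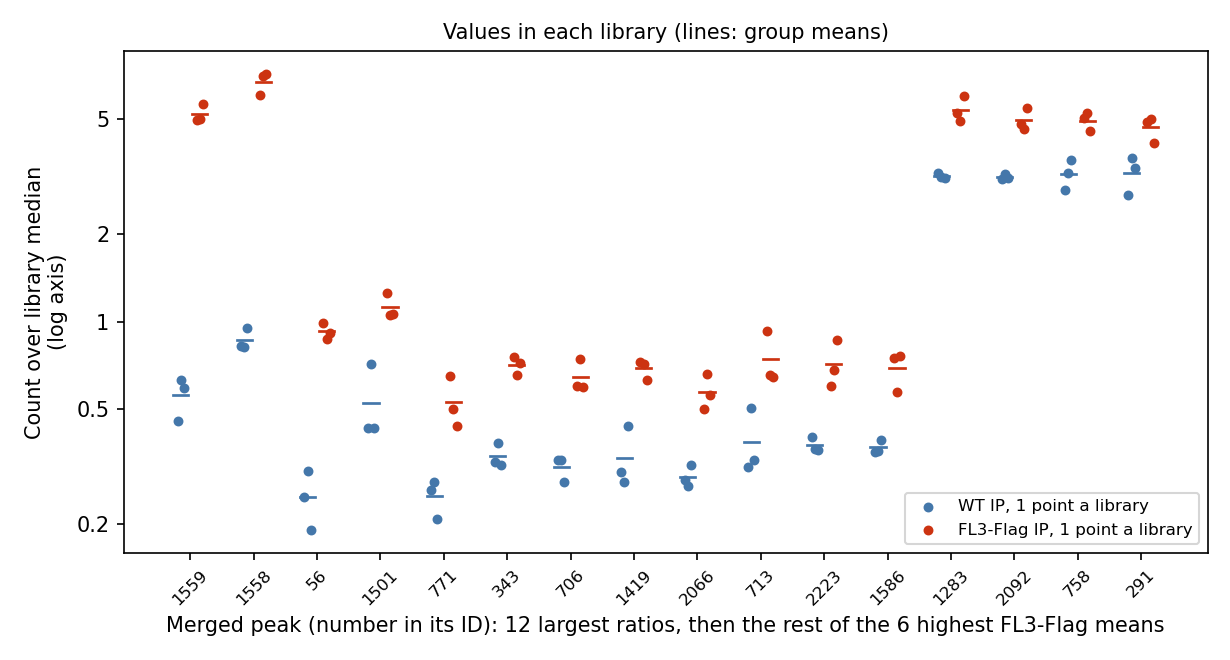
Count over the library's median count, on a log axis, in each of the 3 WT IP and 3 FL3-Flag IP libraries for the 12 peaks with the largest ratios and the rest of the 6 peaks with the highest FL3-Flag means, with a line at each group's mean. Merge_peak_1559 and Merge_peak_1558 reach the level of the strongest of the 230 peaks from a WT level below 1, and the other peaks show smaller steps at a low or a high level.

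A few of the 230 peaks were strong in both genotypes. The FL3-Flag mean was 2 or more in 14 peaks. Merge_peak_1283 held 735, 722 and 705 reads in WT and 1241, 1261 and 1212 in FL3-Flag, which is 3.18 ± 0.0704 and 5.38 ± 0.557 times the median peak (SD, n = 3 each). The counts were nearly equal within each genotype. In multiples of the median peak, however, the FL3-Flag libraries were spread more widely than the WT libraries. The lowest FL3-Flag value of Merge_peak_1283 was still 1.51 times the highest WT value. Its ratio of 1.69 was smaller than at the weak peaks above.

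Merge_peak_2092 went from 3.15 ± 0.0609 to 4.97 ± 0.453 and Merge_peak_758 from 3.24 ± 0.386 to 4.94 ± 0.363 (SD, n = 3 each), ratios of 1.58 and 1.53. Merge_peak_291 had the highest WT mean of the 230, at 3.26, and a ratio of 1.43. There the lowest FL3-Flag value was only 1.12 times the highest WT value. The weakest of the peaks set aside had a WT mean of 4.16, so no peak of the 230 reached the level at which peaks were removed.

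At the lower end the choice was a matter of small differences. Merge_peak_888, Merge_peak_2435 and Merge_peak_2150 lay just inside the ratio of 1.4, and Merge_peak_1778, Merge_peak_1893 and Merge_peak_1655 just outside it. Merge_peak_2435 held 238, 269 and 240 reads in WT and 366, 434 and 278 in FL3-Flag, while Merge_peak_1893 held 204, 258 and 231 and then 390, 369 and 241. The values inside and outside could hardly be told apart. A further 175 peaks did not overlap between the genotypes but had a ratio below 1.4, and 14 had a ratio of 1.4 or more but overlapped.

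The smallest margins belonged to Merge_peak_888, Merge_peak_112 and Merge_peak_2037, where the lowest FL3-Flag value was 1.01 times the highest WT value. At Merge_peak_2037 the WT counts were 54, 81 and 74 and the FL3-Flag counts 164, 92 and 125, so that FL3-Flag replicate 2, taken at its depth, barely passed WT replicate 2. At Merge_peak_888 it was WT replicate 1, with 156 reads against 137 and 91 in the other two, that almost reached the FL3-Flag libraries at 176, 179 and 188.

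Replicates of these peaks varied somewhat more than read counting alone gives. The median coefficient of variation of the 3 WT libraries was 10.7%, against 9.56% from counting error, and that of the 3 FL3-Flag libraries was 12.6%, against 7.62%. Over the 1962 other peaks left, the medians were 10.8% in WT and 8.45% in FL3-Flag, with counting errors of 6.75% and 6.76%. The counting errors cover read sampling only. FL3-Flag replicate 2 was the highest of its group in 121 of the 230 peaks (52.6%), against 39.4% of the 2192 peaks left. FL3-Flag replicate 3 was the lowest in 100 (43.5%), against 35.9%. Within WT, replicate 2 was the highest in 110 (47.8%), against 33.8%.

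With median scaling, the share of peaks that were consistently higher fell with the strength of the peak. When the 2192 peaks were divided into quintiles by their mean over all 6 libraries, 115 of the 439 weakest belonged to the 230 (26.2%). The next quintiles held 51, 32 and 18, and the strongest quintile held 14 of 439 (3.19%). The median ratio of all peaks also fell, from 1.18 in the weakest quintile to 0.890 in the strongest. Among the 230 the median ratio was between 1.53 and 1.58 in every quintile, which the threshold of 1.4 largely fixes.

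The same rule turned round, for peaks with every FL3-Flag value below every WT value and a WT mean at least 1.4 times the FL3-Flag mean, found 101 of the 2192 peaks (4.61%, against 10.5% for the consistently higher peaks). These mirror peaks were strong ones, with a median WT mean of 2.58. Only 5 of them lay in the weakest quintile and 61 in the strongest. Removing the peaks with the highest WT means took peaks mostly from the lower side, since 97 of the removed peaks met the mirror rule and 10 met the rest of the rule for higher peaks. Counts over all 2436 peaks would thus have been 240 higher and 198 lower.

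How many of the 230 peaks met the rule depended on whether this trend with strength was scaled away. With abundance-dependent scaling, which removes the average difference between libraries at each level of peak strength, 146 peaks met the rule. Of the 230, 117 remained and 113 did not, and 29 others came in. In the weakest quintile 24 of 115 remained, in the middle quintile 30 of 32, and in both strongest quintiles all 18 and all 14. Of the 29 that came in, 18 lay in the strongest quintile and 0 in the weakest. From the weakest to the strongest quintile, 24, 31, 33, 26 and 32 peaks then met the rule, so the fall in number with strength was no longer seen. The median ratio of the 230 under this scaling was 1.31, 1.42, 1.54, 1.61 and 1.85 in the same order. With median scaling the 230 had similar median ratios in every quintile, so removing the trend of all peaks largely gives this rise. It is not read as larger differences at strong peaks, and the more even numbers also follow in part from the scaling. All 12 peaks with the largest ratios remained. Their ratios moved to 10.1 at Merge_peak_1559, 8.87 at Merge_peak_1558, 3.04 at Merge_peak_56 and 2.08 at Merge_peak_1501, and to between 1.48 and 1.71 at the other 8. Merge_peak_1283 moved up to 2.08. All 230 ratios stayed above 1, the lowest at 1.05.

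**Figure D3:**
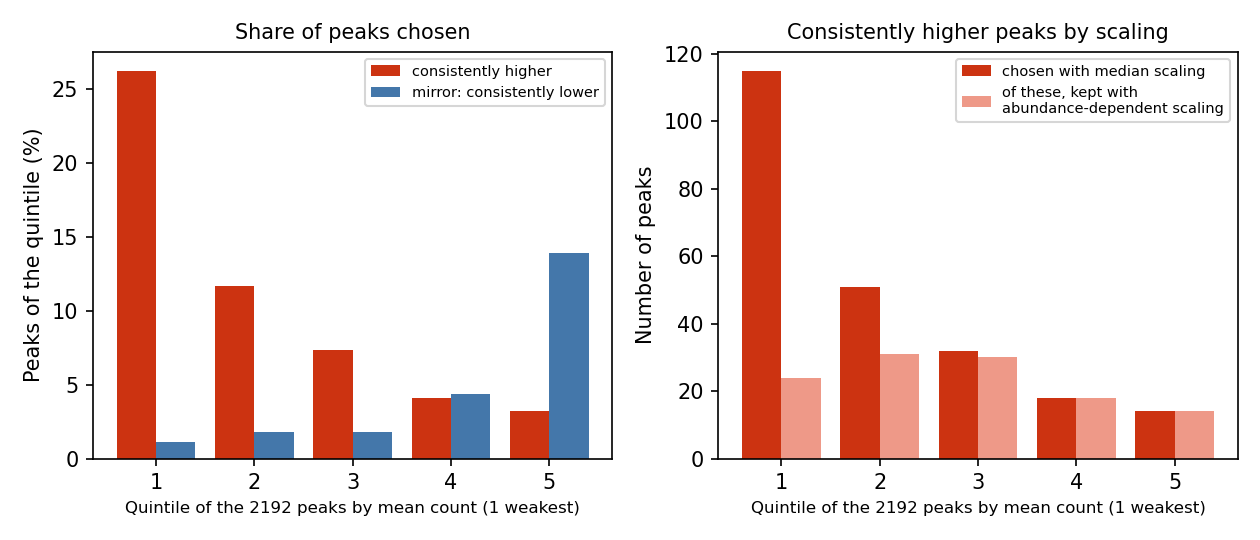
Left, the percentage of peaks in each quintile of the 2192 peaks by mean count that were consistently higher or, by the mirrored rule, consistently lower in FL3-Flag. Right, the number of consistently higher peaks in each quintile and how many of them met the rule with abundance-dependent scaling. The weakest quintile holds 115 of the 230 and keeps 24, and the strongest holds 14 and keeps all of them.

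Libraries left out of a choice gave values that the choice had not used. The rule was applied to 2 WT and 2 FL3-Flag libraries at a time, and the chosen peaks were then read in the WT library and the FL3-Flag library left out. Over the 9 choices, which share libraries, 199 to 307 peaks were chosen. In the library pair left out, between 90.8% and 98.7% of them were higher in FL3-Flag, against 45.03% to 53.1% of all 2192 peaks. The ratio in the left-out pair was 1.4 or more in 37.5% to 70.4% of the chosen peaks, against 7.85% to 18.5% of all.

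The size of the difference shrank in the libraries left out. The median ratio of the chosen peaks was 1.54 to 1.59 in the libraries that chose them and 1.298 to 1.57 in the pair left out, while all 2192 peaks had a median between 0.970 and 1.03. The lowest of these medians came with WT replicate 2 and FL3-Flag replicate 3 left out, and the highest with WT replicate 1 and FL3-Flag replicate 2 left out. A comparison of 1 library with 1 library has no replicate check. Each pair left out also set the same groups against each other. Any difference between the groups other than the tag would recur there, and this was not tested. If the authors called peaks from these same libraries, the peaks themselves were not independent of the libraries left out.

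The weakest quintile as a whole had a median ratio above 1, so the chosen peaks were also read within their own quintile. In the weakest quintile, 87.7% to 100% of the chosen peaks were higher in the FL3-Flag library left out, against 61.05% to 72.4% of all peaks of that quintile. In the strongest quintile, which held 9 to 23 chosen peaks, it was 85.7% to 100% against 21.9% to 37.4%. With abundance-dependent scaling, in which the libraries left out also took part, the chosen peaks that were higher in the pair left out made up 84.3% to 94.4%, against 47.9% to 51.3% of all. In the weakest quintile this was 71.4% to 94.7%, against 47.2% to 56.0% of all peaks of that quintile. Of the 230 peaks, 101 were chosen in all 9 choices with median scaling. With abundance-dependent scaling 53 were chosen in all 9 and 36 in none. The 230 had themselves been chosen with these libraries, so these counts are not readings of libraries left out. With median scaling, a choice could drop one of them only through its ratio or the removal.

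**Figure D4:**
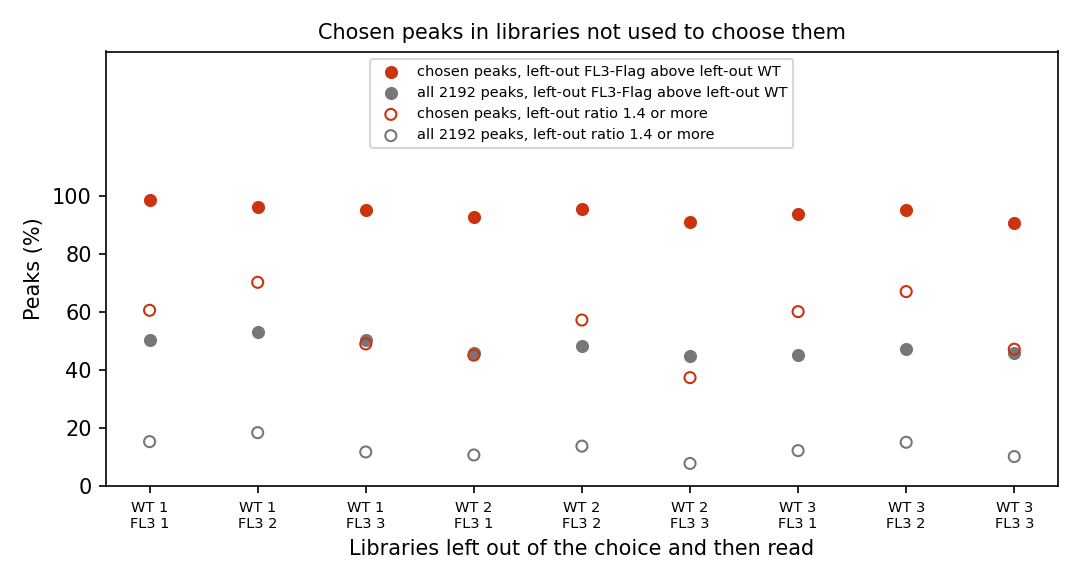
Percentage of peaks that were higher in FL3-Flag (filled) or had a ratio of 1.4 or more (open) in the WT and FL3-Flag libraries left out of the choice, for the peaks chosen from the other 4 libraries and for all 2192 peaks, at each of the 9 choices. The chosen peaks that were higher lie between 90.8% and 98.7% and all peaks between 45.03% and 53.1%.

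Some of the 230 peaks had consecutive IDs. In all, 63 of them (27.4%) had another of the 230 as the next ID on either side, in 22 runs of 2, 5 runs of 3 and 1 run of 4. This share rises with the number of peaks in a set, so it was not compared with other sets. Full blocks of 100 IDs held between 2 and 16 of the 230, with a median of 9, and the last 36 IDs held 10.

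The run of 4 went from Merge_peak_2419 to Merge_peak_2422. These were weak peaks with WT means of 0.322 to 0.499 and ratios of 1.66, 1.64, 1.80 and 1.50. Merge_peak_2421 held 72, 84 and 63 reads in WT and 124, 178 and 106 in FL3-Flag. By ID it was flanked by Merge_peak_2418 at a ratio of 1.06 and by Merge_peak_2423 at 1.36, which did not overlap between the genotypes but stayed under the threshold. Merge_peak_2424, a strong peak among those removed, had a ratio of 0.660. With abundance-dependent scaling the 4 ratios were 1.31 to 1.43. Only Merge_peak_2420 was then at 1.4 or more, so the run did not persist under that scaling.

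The run from Merge_peak_341 to Merge_peak_343 placed a strong peak between weak ones. Merge_peak_342 held 434, 536 and 511 reads in WT and 837, 830 and 716 in FL3-Flag, a ratio of 1.58, and the peaks on its sides had ratios of 1.78 and 2.07. The next IDs outward went the other way, at 0.635 for Merge_peak_340 and 0.621 for Merge_peak_344. Merge_peak_1288, Merge_peak_1289 and Merge_peak_1290 formed another run, at ratios of 1.63, 1.70 and 1.51, followed by Merge_peak_1291 at 0.773.

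In 3 stretches of IDs the consistently higher peaks stood among removed peaks that also met the rest of the rule. The stretches were picked after their values were seen. In the stretch from Merge_peak_2090 to Merge_peak_2099, 5 peaks belonged to the 230 and 5 were among those removed, and their ratios ran from 1.57 to 1.83. The WT means within it reached from 0.358 at Merge_peak_2098 to 19.8 at Merge_peak_2090. With abundance-dependent scaling the ratios separated by strength, at 2.00 to 2.37 for the 5 removed peaks and 1.404 to 1.98 for the 5 of the 230, the lowest at the weak Merge_peak_2099 and Merge_peak_2098. Beyond its edges the ratio was 1.16 at Merge_peak_2089 and 0.966 at Merge_peak_2100. Merge_peak_2088, next to Merge_peak_2089 by ID, again belonged to the 230, at a ratio of 1.66.

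In the second stretch, Merge_peak_1509, Merge_peak_1515 and Merge_peak_1516 were removed for WT means of 7.18, 31.6 and 38.7 and had ratios of 1.62, 1.57 and 1.50. Between and after them Merge_peak_1510, Merge_peak_1511, Merge_peak_1513, Merge_peak_1514, Merge_peak_1517 and Merge_peak_1519 belonged to the 230, at ratios of 1.55 to 1.78. Merge_peak_1512 and Merge_peak_1518 lay between them by ID at 1.14 and 1.01, and Merge_peak_1508, just before, was a strong removed peak with a ratio of 0.423.

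In the third stretch, Merge_peak_1279 to Merge_peak_1282 were strong removed peaks with WT means of 78.2 to 462. Only Merge_peak_1279 met the rest of the rule, at a ratio of 1.55, and the other 3 lay lower, at 1.198 to 1.32. Merge_peak_1278 and Merge_peak_1283 on their sides belonged to the 230, at ratios of 1.64 and 1.69. In all, 10 removed peaks met the rest of the rule, and 15 of the 230 peaks lay within 5 IDs of one of them, with ratios of 1.55 to 1.83. The share of all 2192 peaks left that lay as near was not computed, so the 15 are not read as many or few.

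**Figure D5:**
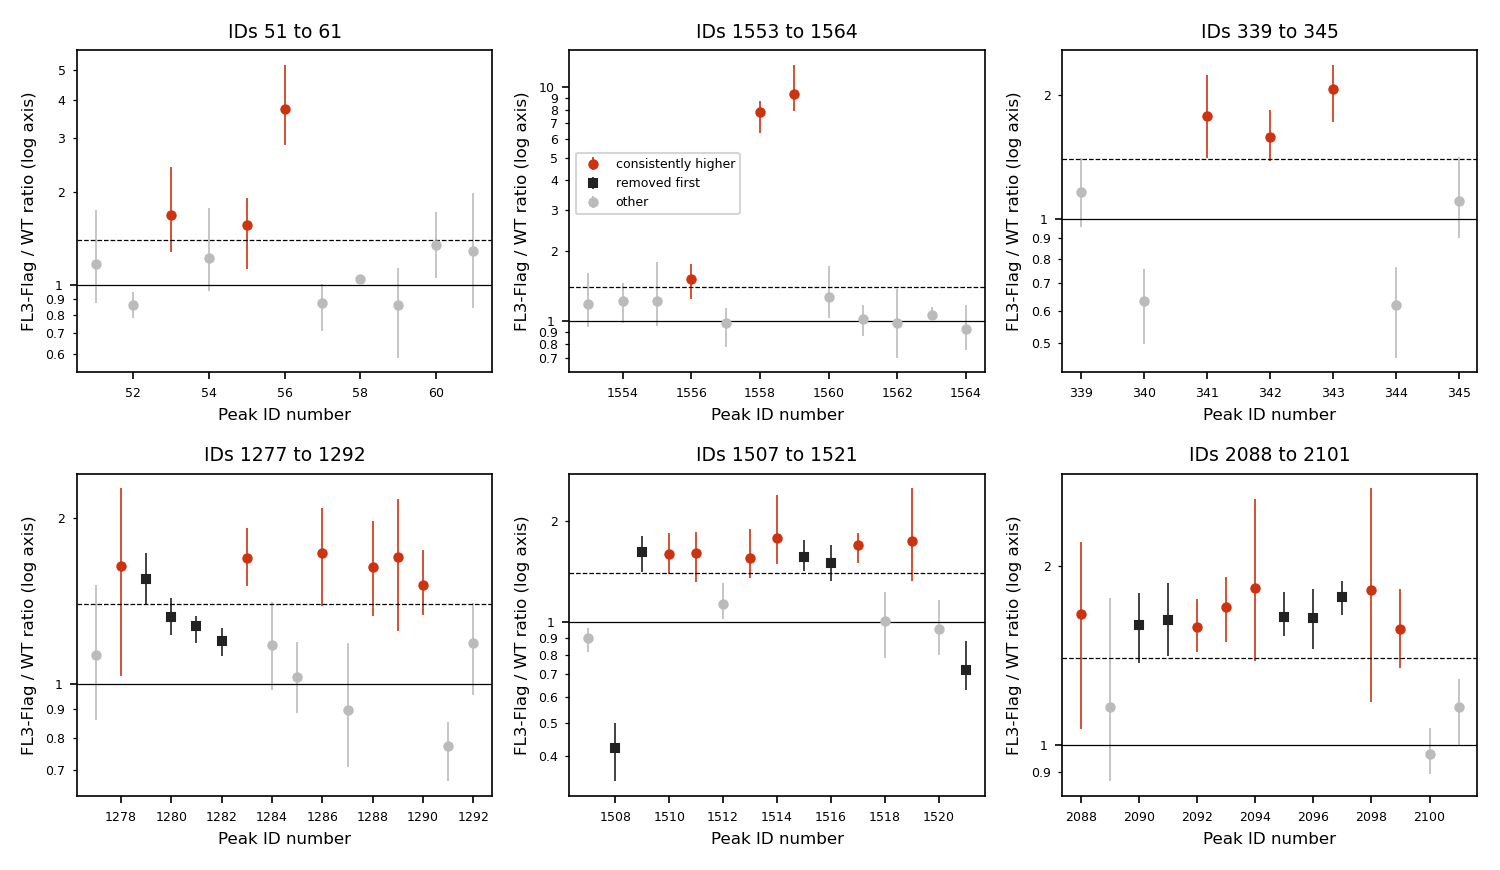
Ratio of FL3-Flag mean to WT mean, on log axes that differ between panels, against the number in the peak ID for 6 stretches, with bars from the lowest to the highest of the 9 ratios between single libraries and lines at ratios of 1 and 1.4. Merge_peak_1558 and Merge_peak_1559 stand alone at 7.81 and 9.34, while in the stretch from Merge_peak_2090 to Merge_peak_2099 the ratios of the consistently higher and of the removed peaks lie between 1.57 and 1.83 with the median scaling plotted here, and part by strength with abundance-dependent scaling.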

How the data were processed

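The files deposited by the authors hold whole-number read counts over 2436 merged peaks, 1 file for each of the 6 IP libraries. Per the submitters' processing notes, the build was TAIR10 and the tools were MACS3 3.0.0a7, ChIPseeker 1.34.1, BWA 0.7.17-r1188 and deepTools 3.5.1. The role of each, the libraries used to call peaks, and the treatment of duplicates and of reads with several matches are not given in those sources, and each could change the counts. Depth outside the peaks is unknown.

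Libraries were assigned to groups by their titles. The rule, the counts of IDs and the readings of libraries left out were computed in Python 3.11.15 with pandas 2.3.3. The count test was edgeR 4.0.16 (R 4.3.3) with TMM factors, genotype as the only term and Benjamini-Hochberg adjustment over all 2436 peaks; its minimum count of 10 removed 0 peaks. It was tested on simulated data that held no trend of the ratio with peak strength, so that check does not cover the trend seen here. DESeq2 1.42.0 was an alternative. Abundance-dependent scaling used cyclic loess (limma 3.58.1, 3 iterations, 0.5 reads added).

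The members and lists were chosen with earlier results of these data known. Named peaks are the 12 largest ratios, the 6 highest FL3-Flag means, the 3 longest runs of IDs, 3 peaks on each side of the ratio of 1.4, and the 3 largest and 3 smallest margins. Other peaks named were chosen after their values were seen.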

Additional observations from a re-analysis of the deposited data

How the results depend on the processing

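The number of consistently higher peaks was 230, and 227 to 290 with TMM factors, DESeq2 size factors, the total without the 4 strongest peaks, no scaling, or 0.5 reads added. Leaving out 1 library at a time gave 197 (without FL3-Flag replicate 2) to 293 (without FL3-Flag replicate 3), with 177 to 221 of the 230 among them. Scaling by the upper quartile or by the total over all peaks gave 357 or 1256, each including the 230. The total raised the median ratio of all peaks to 1.44, a log2 shift from -0.05 to 0.52, and that of the 230 peaks to 2.33, so ratios above are relative to the median peak. Abundance-dependent scaling gave 146. A ratio of 1.3, 1.5 or 2 gave 315, 153 or 8, removing the top 20% gave 225, and without removing the strongest peaks there were 240. With 1 library left out, the median ratio of 1.56 ran from 1.53 to 1.59, and the difference in read share of 3.68 percentage points from 3.59 to 3.81. Both were taken over the same 230 peaks, chosen with all the libraries, so the choice largely fixes these ranges. The share does not depend on scaling while the 230 and the removed peaks are held fixed, but the choice of those peaks does. Scaling was not varied for the share. The 33 named peaks had no overlap between the genotypes, so with 1 library left out their direction could not reverse. Their ratios stayed above 1 in all 462 values under the alternatives run, the lowest at 1.18. The choice of these peaks largely fixes this, and it is not read as a result. Of the 230 peaks, 153 had another within 5 IDs. This count rises with the number of peaks in a set and with the distance allowed, so it is not read as clustering. With abundance-dependent scaling, added after seeing the data, the median share of chosen peaks higher in the pair left out was 91.5%, against 95.2%.

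Over all peaks edgeR called 432 higher and 375 lower. The total over all peaks gave 1837 and 33. Leaving out 1 library gave 279 to 422 higher, with the fewest without FL3-Flag replicate 2, and 279 to 368 lower, and 197 to 224 of the 230. With the replicate block 422 were higher and 363 lower, and 228 of the 230 were called. Deviations of same-numbered libraries correlated at -0.0118, 0.000687 and -0.0716 across peaks. Libraries with different numbers were not compared, so whether same-numbered libraries were prepared together was not tested. The weakest peaks, at 43 reads or more in a library, limit what can be resolved, since counting error alone is up to 13.3% of the count of a single WT library of average depth among the 230.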
